A study of Arabidopsis thaliana with 22 samples.

Results

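The plastid ribosomal RNA genes of Arabidopsis thaliana are rrn16S, rrn23S, rrn4.5S and rrn5S, which encode the RNA of the chloroplast ribosome. They were chosen by their annotation in the plastid genome and make up 4 of the 112 plastid genes measured. Each lies in the inverted repeat, a stretch of the plastid genome present as mirrored copies, and the counts of both copies were summed. In TAIR10 plastid coordinates (sequence Pltd), rrn16S occupies positions 101012 to 102502 in one copy and 136147 to 137637 in the other. Annotated lengths were 1491 bp for rrn16S, 2810 bp for rrn23S and 103 bp for rrn4.5S. The entry taken as rrn5S, ArthCr091, is an unnamed rRNA gene of 121 bp at the end of the operon, and its mirrored positions were added.

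The RNA of rrn16S is the core of the small ribosomal subunit. The RNAs of rrn23S, rrn4.5S and rrn5S belong to the large subunit, and that of rrn4.5S corresponds to the 3′ end of bacterial 23S rRNA. In land plants the genes form one operon in the order rrn16S, trnI, trnA, rrn23S, rrn4.5S and rrn5S, and the long primary transcripts are cut into the mature RNAs. Both plastid RNA polymerases, the bacterial-type and the phage-type enzyme, can transcribe it, and it is among the most heavily transcribed parts of the chloroplast genome.

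Accessibility was measured by ptATAC-seq, in which the transposase Tn5 inserts sequencing adapters into DNA that it can reach. Nucleoids were compared with naked plastid DNA, each with 11 replicate numbers. The nucleoid fraction is plastid DNA with its proteins, and the naked fraction is plastid DNA labelled as naked, which gives the background of Tn5 insertion on bare DNA. Both came from rosette leaves of wild-type Col0 plants aged 14 days, from chloroplasts fixed with formaldehyde, per the labels' protocols. The libraries of nucleoid replicates 9 and 10 were identical at all 154477 positions and were counted once, which left 10 nucleoid and 11 naked libraries. The labels do not say whether the replicates came from separate plants or preparations, so p-values measure the spread between these libraries, which may be technical.

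Total counts were 202725 to 1813905 in nucleoid libraries and 105763 to 1195649 in naked libraries. The fractions differed in depth: 8 of 10 nucleoid libraries held over 600000 counts, against 5 of 11 naked libraries, and these 13 are called deep here. Naked replicates 9, 10 and 11 had the highest signals of their fraction at all 4 rRNA genes, and nucleoid replicate 11, the shallowest of its fraction, stood apart from the other nucleoid libraries at each of these genes. Values from the deep libraries are therefore given beside the results. Signal is the mean count per position of a gene or window as a percent of the library's own genome mean, so that 100 is the genome mean and levels are per length. A log2 fold change is the nucleoid mean of log2(signal + 1) minus the naked mean, and a call is a limma adjusted p under 0.05, adjusted over all genes or windows.

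The ribosomal RNA genes held less of the signal in nucleoids than in naked DNA, while staying above the genome mean in both fractions. rrn16S, rrn23S and rrn5S were lower in nucleoids by 0.50 to 0.51 on the log2 scale. rrn4.5S differed in the same direction by 0.32 but did not pass the test. The call was therefore made for 3 of the 4 genes, beside 24.1% of all 112 genes that were called lower in nucleoids, and none of the 4 was called higher. Among deep libraries the differences were smaller, from -0.25 for rrn5S to -0.11 for rrn4.5S. There only rrn5S was called, beside 14.3% of all genes called lower.

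The genes cover 5.86% of plastid genome positions. They held 6.83%, 8.55% and 12.8% of the counts in the lowest, median and highest nucleoid library, against 8.10%, 12.5% and 20.9% in naked libraries. The share thus exceeded the share of positions in every library of both fractions, and the fractions overlapped. The operon from the start of rrn16S to the end of rrn5S, 7058 bp with its transfer RNA genes and spacers, held 13.5% ± 2.29 of the counts in nucleoids (SD, n = 10) and 18.98% ± 5.53 in naked DNA (SD, n = 11). In the deep libraries alone its share was 12.8% ± 1.32 in nucleoids (SD, n = 8) and 14.2% ± 1.24 in naked DNA (SD, n = 5). A smaller share of insertions at a locus and fewer copies of that DNA in a fraction cannot be told apart in these data.

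rrn16S, the RNA of the small subunit, had a signal of 118 in the lowest, 145 in the median and 233 in the highest nucleoid library, against 137, 215 and 374 in naked libraries. The highest nucleoid value was that of replicate 11, and the next was 170. All but 1 of the 10 nucleoid libraries lay below the naked median, and 4 of 11 naked libraries lay above every nucleoid library, so the groups overlapped. The means were 153 ± 31.7 in nucleoids (SD, n = 10) and 224 ± 74.1 in naked DNA (SD, n = 11), with -0.50 as the log2 fold change (SE 0.16, limma adjusted p = 0.0197).

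rrn23S, the largest RNA of the large subunit and the one that forms its catalytic centre, had signals of 115, 145 and 210 in the lowest, median and highest nucleoid library, against 138, 215 and 351 in naked libraries. All 10 nucleoid libraries lay below the naked median, and 6 of 11 naked libraries lay above every nucleoid library. Its mean was 149 ± 26.0 in nucleoids (SD, n = 10) and 219 ± 67.7 in naked DNA (SD, n = 11), with -0.51 as the log2 fold change (SE 0.15, limma adjusted p = 0.0141).

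rrn5S, whose RNA sits in the central protuberance of the large subunit, had signals of 108, 137 and 196 in the lowest, median and highest nucleoid library, against 140.4, 199.6 and 277 in naked libraries. Here too all 10 nucleoid libraries were below the naked median, and only 3 exceeded the lowest naked library. The mean was 139 ± 23.2 in nucleoids (SD, n = 10) and 201 ± 49.99 in naked DNA (SD, n = 11), with -0.50 as a log2 fold change (SE 0.13, limma adjusted p = 0.00637).

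rrn4.5S, the shortest of the genes, had signals of 143, 175 and 281 in the lowest, median and highest nucleoid library, against 160.1, 210.2 and 352 in naked libraries. The groups overlapped over most of their range, with 3 of 11 naked libraries above every nucleoid library. Its means were 181 ± 39.9 in nucleoids (SD, n = 10) and 231 ± 67.6 in naked DNA (SD, n = 11), with -0.32 as the log2 fold change (SE 0.15, limma adjusted p = 0.0941). The gene was called with the replicate number as a block (-0.28, limma adjusted p = 0.0102), with scaling to the inverted repeat outside the operon (-0.40, limma adjusted p = 0.0413), and without nucleoid replicate 11 (-0.40, limma adjusted p = 0.0321).

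**Figure D1:**
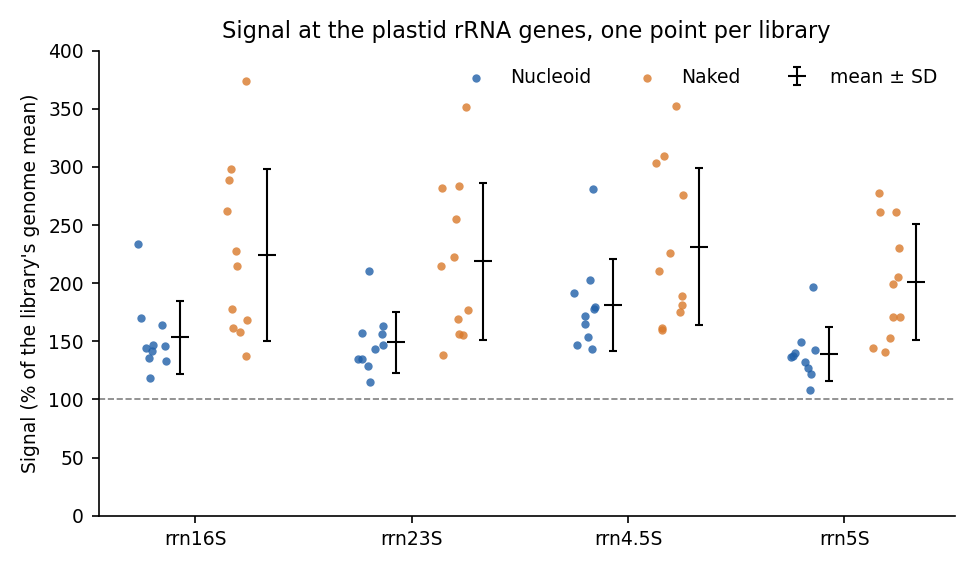
Signal of each rRNA gene as a percent of the library's genome mean (vertical axis), with one point per library, nucleoid left of naked, and the mean with SD as a bar. Nucleoid means lie between 139 and 181 and naked means between 201 and 231, and the point clouds of the fractions overlap at every gene.

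The order of the mean levels was rrn4.5S, rrn16S, rrn23S and rrn5S in both fractions. Of all 112 genes, rrn4.5S ranked 1 in nucleoids and 2 in naked DNA, and rrn16S ranked 3 in both. rrn23S ranked 5 in nucleoids and 4 in naked DNA, and rrn5S ranked 10 in nucleoids and 7 in naked DNA. Neighbouring genes in this order differed by less than the SD over libraries of either gene. That SD is not the spread of a difference within a library. Within libraries, rrn4.5S lay above rrn16S in every nucleoid library but not in every naked library. The 4 genes varied together from library to library, with Pearson's r with rrn16S over 21 libraries of 0.9951 for rrn23S, 0.974 for rrn5S and 0.937 for rrn4.5S. These correlations are descriptions, since the genes share each library's depth and genome mean.

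The size of the difference depended on which libraries were compared. Among the deep libraries, rrn16S had a mean signal of 144 ± 16.6 in nucleoids (SD, n = 8) and 160.4 ± 15.1 in naked DNA (SD, n = 5), a log2 fold change of -0.16 (limma adjusted p = 0.225). rrn23S averaged 142 ± 16.4 in deep nucleoid libraries and 159 ± 14.9 in deep naked libraries (-0.17, limma adjusted p = 0.189). rrn4.5S averaged 166 ± 17.2 in deep nucleoid libraries and 179 ± 21 in deep naked libraries (-0.11, limma adjusted p = 0.413). All 3 genes kept the lower mean in nucleoids, and none of the 3 passed the test.

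rrn5S was the only one of the 4 genes that passed among deep libraries. Its mean was 131 ± 11.3 in deep nucleoid libraries (SD, n = 8) and 156 ± 14.4 in deep naked libraries (SD, n = 5), a log2 fold change of -0.25 (limma adjusted p = 0.0325). Deep nucleoid libraries ran from 108 to 143 and deep naked libraries from 140.4 to 171, so they overlapped by a narrow margin. With this choice 1 of the 4 genes was called lower, beside 14.3% of all genes. In the same libraries the log2 ratio of rrn5S to rrn23S did not pass (difference -0.08, exact permutation adjusted p = 0.281). A different behaviour of rrn5S from rrn23S is therefore not shown.

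With log2 depth as a term in the model, the log2 fold changes were -0.27 for rrn16S (limma adjusted p = 0.165), -0.30 for rrn23S (0.103), -0.13 for rrn4.5S (0.488) and -0.31 for rrn5S (0.0368). In this model 1 of 4 genes was called lower, beside 17% of all genes. Without naked replicates 9, 10 and 11 the values were -0.29 for rrn16S (limma adjusted p = 0.0933), -0.31 for rrn23S (0.064), -0.13 for rrn4.5S (0.547) and -0.34 for rrn5S (0.0268). rrn5S was therefore called lower in nucleoids under each of these choices, and rrn16S and rrn23S under none of them.

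Among naked libraries the 6 shallow ones had rrn16S signals of 215 to 374 and the 5 deep ones 137 to 178. The deep ones are naked replicates 1 to 5 and the shallow ones 6 to 11, so depth and replicate number cannot be told apart there. Signal did not simply follow depth among the shallow ones. Naked replicate 6, the shallowest with 105763 counts, had 215, and naked replicate 9, with 527624 counts, had 288. In nucleoids, the shallow libraries, replicates 9 and 11, had rrn16S signals of 146 and 233, against 118 to 170 in the 8 deep ones. How much of the difference between the fractions comes with depth and how much with the fraction was not tested beyond these fits, because the shallow libraries are mostly naked.

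**Figure D2:**
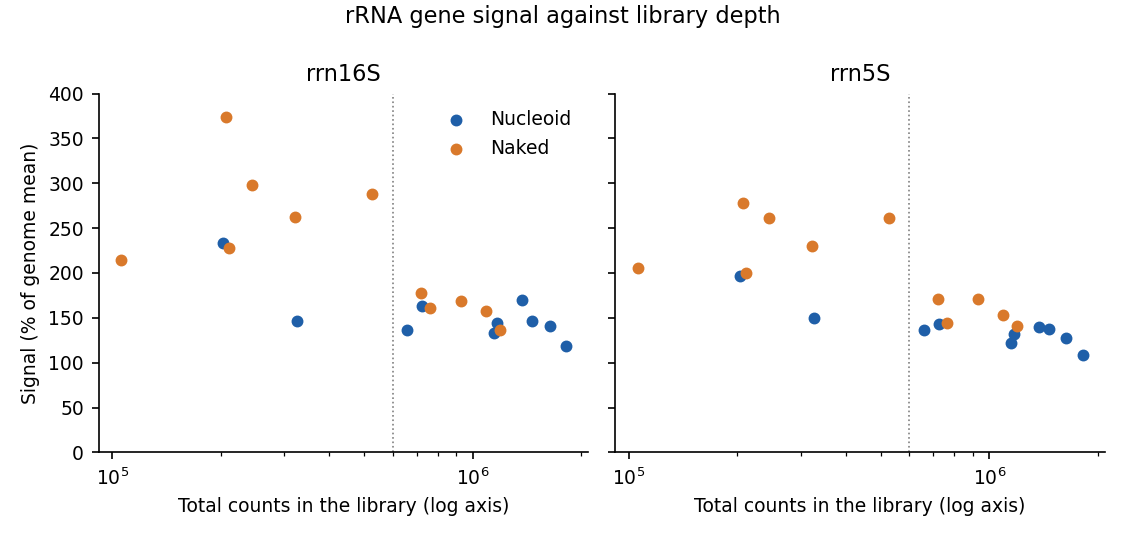
Signal of rrn16S and of rrn5S as a percent of the genome mean (vertical axis) against the library's total count (horizontal log axis), 1 point per library, with nucleoid and naked libraries in separate colours and a dotted line at 600000 counts. At rrn16S the 6 naked libraries below 600000 counts sit at 215 to 374 and the 5 above it at 137 to 178, and the 8 deep nucleoid libraries at 118 to 170.

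The scale also matters to the counts over all genes. Relative to the genome mean, nucleoids had 27 genes called lower and 11 called higher, with a median of 0.10 over all genes on the log2 scale. Scaled to the median of 200 bp windows, they had 30 called lower and 1 called higher, and the median over all genes was -0.05. The rRNA genes were then at -0.66 for rrn16S, rrn23S and rrn5S and -0.48 for rrn4.5S. Scaled to the inverted repeat outside the operon, 37 were called lower and 1 higher, and the fold changes were -0.58 for those 3 genes and -0.40 for rrn4.5S. All 4 rRNA genes were lower in nucleoids on each of the 3 scales.

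The transfer RNA genes around the operon differed in the same direction. trnA, which lies between rrn16S and rrn23S, had a signal of 151 ± 24.7 in nucleoids and 202 ± 51.8 in naked DNA (SD, n = 10 and 11), a log2 fold change of -0.39 (limma adjusted p = 0.0197). Its call was lost with depth in the model (-0.22, limma adjusted p = 0.165), in deep libraries (-0.15, 0.182) and without naked replicates 9, 10 and 11 (-0.22, 0.0933). trnI, the other transfer RNA gene of that spacer, had 143 ± 24.6 in nucleoids and 179 ± 53.5 in naked DNA (-0.29, limma adjusted p = 0.101). trnV, upstream of rrn16S, had -0.28 (limma adjusted p = 0.0805). Both passed with the replicate block, with adjusted p-values of 0.00986 for trnV and 0.0413 for trnI by limma. Among deep libraries trnI had 134.3 ± 12.6 in nucleoids and 134.5 ± 14.1 in naked DNA, a log2 fold change of -0.0012 (limma adjusted p = 0.987), and trnV was at -0.13 (0.203). With depth in the model the values were -0.08 for trnI (limma adjusted p = 0.617) and -0.14 for trnV (0.428), and without naked replicates 9, 10 and 11 they were -0.10 (0.585) and -0.11 (0.432).

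Downstream of rrn5S, trnR fell to 144 ± 31.0 in nucleoids, against 243 ± 77.9 in naked DNA (log2 fold change -0.72, SE 0.16, limma adjusted p = 0.00255). trnN, the next gene, had 138 ± 21.5 in nucleoids and 186 ± 37.1 in naked DNA (-0.42, limma adjusted p = 0.00637). Both were called in every fit that left out 1 library, with depth in the model and among deep libraries, where trnR was at -0.38 (limma adjusted p = 0.044) and trnN at -0.25 (0.049). From the first copy of the repeat alone, trnN was at -0.35 and did not pass (limma adjusted p = 0.0793). Elsewhere in the repeat the direction differed between genes. ycf2 was higher in nucleoids, at 118 ± 5.28, against 101 ± 15.3 in naked DNA (0.24, limma adjusted p = 0.0215), as was the NADH dehydrogenase gene ndhB, at 125 ± 6.68 in nucleoids and 111 ± 10.2 in naked DNA (0.17, limma adjusted p = 0.0197). Neither call held with scaling to the median window (0.09 for ycf2 and 0.02 for ndhB, limma adjusted p = 0.135 and 0.843) or to the repeat outside the operon (0.16 and 0.10, limma adjusted p = 0.0871 and 0.0952). Both were also lost with depth in the model and among deep libraries (0.06 for ycf2 and 0.09 for ndhB), and that of ycf2 with the replicate block (limma adjusted p = 0.0555). The ribosomal protein genes of the repeat, rps7 (-0.10, limma adjusted p = 0.142), rpl2 (-0.05, 0.476) and rpl23 (0.12, 0.099), did not pass the test.

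The same comparison was made for the 21 plastid genes of ribosomal proteins, whose products join the rRNAs in the ribosome. Of these, 4 were called higher in nucleoids, beside 9.82% of all genes, and 2 were called lower, beside 24.1%. The median log2 fold change was 0.17 over the 21 genes, -0.50 over the 4 rRNA genes and 0.10 over all genes. rps12, for a protein of the decoding site in the small subunit and counted here only over its part outside the repeat, was lower at 106 ± 8.99 in nucleoids, against 142 ± 24.8 in naked DNA (-0.41, limma adjusted p = 0.00089), and at -0.28 among deep libraries (limma adjusted p = 0.0205). rps14 was lower with a log2 fold change of -0.27 (limma adjusted p = 0.0387), and rps3 was higher with 0.54 (0.0406), but the call was lost without any 1 of 12 libraries for rps14 and 13 for rps3. Both calls were also lost with the replicate block (limma adjusted p = 0.0674 for rps14 and 0.0523 for rps3), with depth in the model and among deep libraries. rps15 had the largest positive value of the 21 genes, 0.93 (limma adjusted p = 0.101), and did not pass. Its signal was 69.8 ± 15.8 in nucleoids and 49.7 ± 32.4 in naked DNA, and among deep libraries its log2 fold change was 0.05 (limma adjusted p = 0.864).

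Outside the operon, the genes whose log2 signal followed rrn16S most closely over 21 libraries were trnR (Pearson's r = 0.97), trnN (0.95), trnE (0.95), the other trnI gene of the repeat (0.93) and atpH (0.92). trnE and atpH, which encodes a subunit of ATP synthase, lie outside the inverted repeat. trnE had a signal of 98.3 ± 23.6 in nucleoids and 179 ± 53.9 in naked DNA (-0.83 on the log2 scale, and -0.52 among deep libraries). The values are descriptions over libraries that differ in depth.

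Ratios taken within a library do not depend on the genome mean, and 6 were compared between the fractions by two-sided permutation tests with 100000 resamples, adjusted over the 6. Neither the ratio of rrn23S to rrn16S nor that of rrn5S to rrn23S passed the test. The log2 ratio of rrn23S to rrn16S was -0.03 ± 0.06 in nucleoids (SD, n = 10) and -0.03 ± 0.03 in naked DNA (SD, n = 11), a difference of -0.0058 (permutation adjusted p = 0.934). The ratio of rrn5S to rrn23S was -0.10 ± 0.08 in nucleoids and -0.10 ± 0.10 in naked DNA, a difference of 0.0035 (permutation adjusted p = 0.934). Over all libraries these differences are small beside the spread between libraries. Among deep libraries the ratio of rrn5S to rrn23S was -0.11 ± 0.07 in nucleoids and -0.03 ± 0.05 in naked DNA. That deep difference was -0.08 (exact permutation adjusted p = 0.281). For rrn23S to rrn16S the deep difference was -0.015 (exact permutation adjusted p = 0.735).

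rrn4.5S was higher relative to its neighbour rrn23S in nucleoids. The log2 ratio was 0.27 ± 0.12 in nucleoids (SD, n = 10) and 0.09 ± 0.14 in naked DNA (SD, n = 11), a difference of 0.19 (permutation p = 0.0034, adjusted p = 0.0102). All 10 nucleoid libraries lay above the naked median, and the ranges overlapped, from 0.14 to 0.46 in nucleoids and from -0.24 to 0.31 in naked DNA. Among deep libraries the ratio was 0.23 ± 0.09 in nucleoids and 0.17 ± 0.11 in naked DNA, a difference of 0.06 (exact permutation adjusted p = 0.416). Paired by replicate number, the difference was 0.19 (permutation adjusted p = 0.105). rrn4.5S is short, and its lowest library held 256 counts over both copies.

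The contrast between the rRNA genes and the rest of the operon was smaller in nucleoids. The log2 ratio of the 4 genes to the other operon positions, trnI and trnA included, was 0.09 ± 0.07 in nucleoids (SD, n = 10) and 0.23 ± 0.11 in naked DNA (SD, n = 11), a difference of -0.14 (permutation p = 0.00274, adjusted p = 0.0102). All 10 nucleoid libraries were below the naked median. In deep libraries the ratio was 0.08 ± 0.06 in nucleoids and 0.12 ± 0.02 in naked DNA, a difference of -0.05 (exact permutation adjusted p = 0.281), and with pairing by replicate number the difference was -0.13 (permutation adjusted p = 0.0938).

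Within each long gene the signal was lower toward the 5′ end in both fractions. The log2 ratio of the 5′ to the 3′ part, divided at the midpoint, was -0.17 ± 0.07 in nucleoids and -0.15 ± 0.06 in naked DNA for rrn16S (difference -0.02, permutation adjusted p = 0.69). With log2 depth in the model this difference was -0.07 and passed (adjusted p = 0.0131). For rrn23S the ratio was -0.10 ± 0.04 in nucleoids and -0.12 ± 0.06 in naked DNA (difference 0.02, permutation adjusted p = 0.656).

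**Figure D3:**
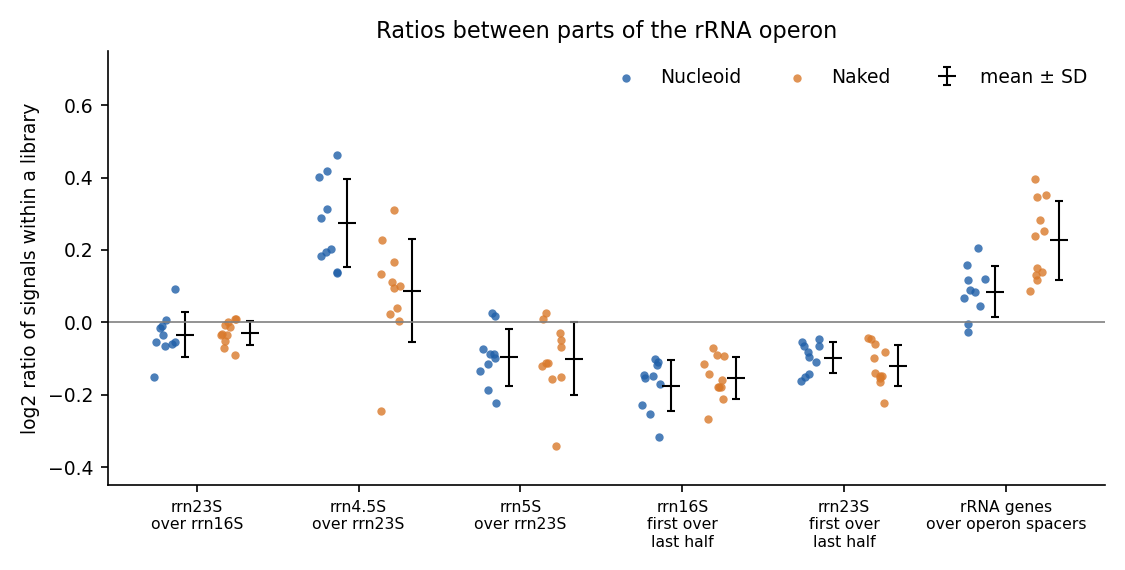
The 6 log2 ratios within the operon (vertical axis), with one point per library, nucleoid left of naked, and the mean with SD. rrn4.5S over rrn23S is higher in nucleoids by 0.19 and the rRNA genes over the operon's other positions lower by 0.14, and the other 4 differ by less than the spread between libraries.

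All 69 windows of 100 bp between the start of rrn16S and the end of rrn5S had a lower mean in nucleoids, with a median log2 fold change of -0.46. By limma, 44 of the 69 were called lower and 0 higher, beside 9.59% of all 1282 windows called lower and 12.8% called higher, and 62 had an unadjusted p under 0.05. Of the windows with most of their length in rrn16S, 11 of 14 were called, with a median of -0.49. For rrn23S 21 of 28 were called (median -0.50), and for the 25 windows mostly outside the rRNA genes 12 were called (median -0.36). Of the 2 windows mostly in rrn4.5S or rrn5S, 0 were called (median -0.34). Windows that cross an end of the operon are not among the 69. The window across the start of rrn16S had -0.32 (limma adjusted p = 0.105). The window across the end of rrn5S had -0.39 and was called lower (limma adjusted p = 0.0223). Both lie mostly within those genes. The windows mostly in trnI had 1 of 8 called and a median of -0.27, against 4 of 8 and -0.39 for trnA.

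Fewer windows passed when depth was taken into account. With log2 depth in the model 11 operon windows were called lower, beside 3.67% of all windows. Among deep libraries limma called 0 of 69, beside 0.156% of all windows called lower, while 20 had an unadjusted p under 0.05, 62 had a lower mean in nucleoids and the median was -0.14. Without naked replicates 9, 10 and 11 the count was 15, while 52 of all 1282 windows were called lower. With the replicate block the count was 63, while 162 of all 1282 windows were called lower. Leaving out any 1 of several libraries lowered the count to between 19 and 28. This held for nucleoid replicates 1, 2, 5, 6, 7, 8 and 9 and naked replicates 6 to 11. Over all windows those fits called 52 to 88 lower, against 123 with every library.

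**Figure D4:**
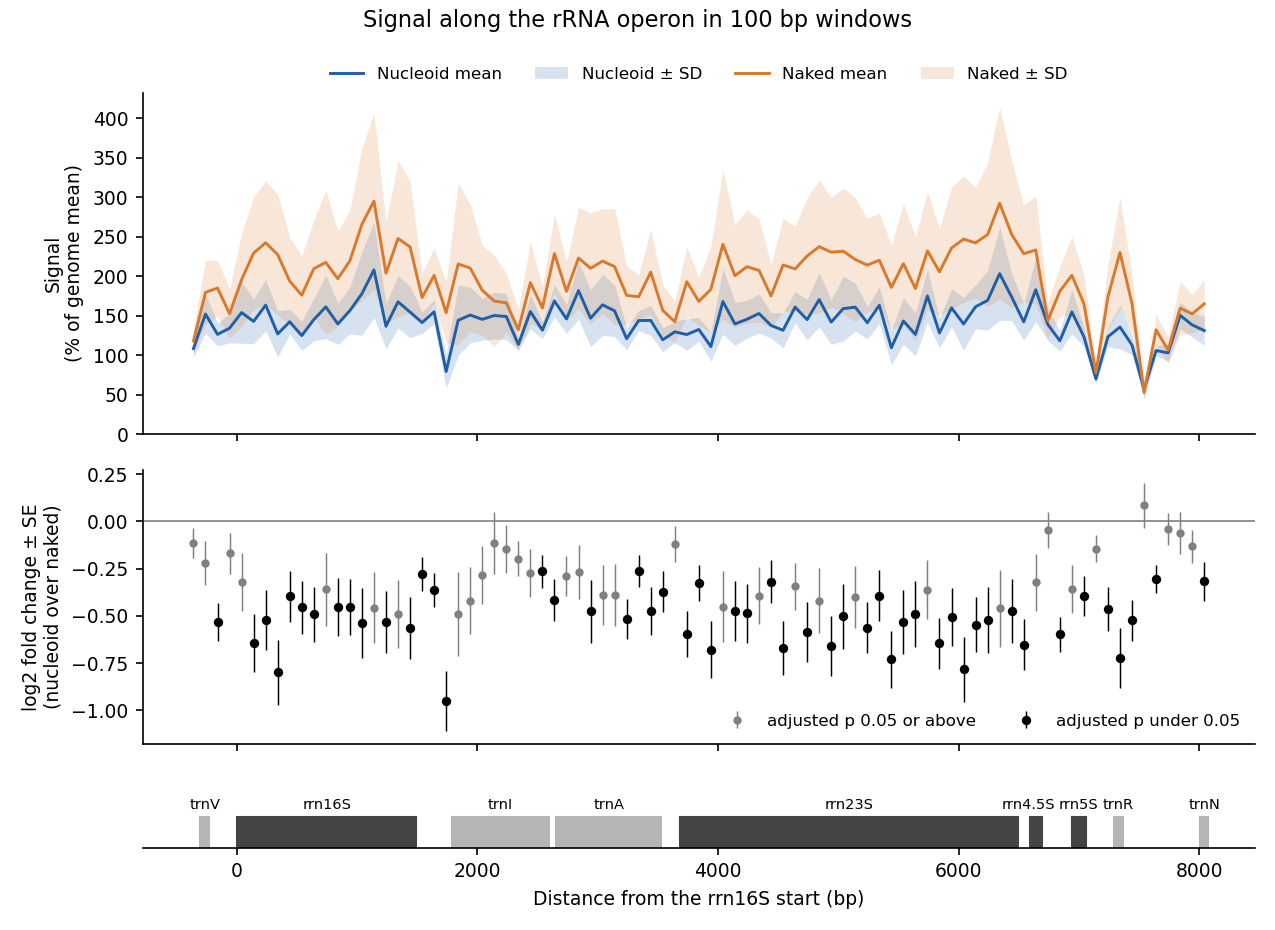
Top, signal in 100 bp windows along the operon and its flanks as a percent of the genome mean (vertical axis) against distance from the start of rrn16S in bp (horizontal axis), mean with SD as a band for nucleoid and naked libraries. Below it, the log2 fold change with its SE for each window, black where the adjusted p is under 0.05, and the genes; the nucleoid mean is the lower one at all 69 windows of the operon, and the most negative log2 fold change, -0.95, lies just before trnI.

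The largest log2 fold change lay in the spacer between rrn16S and trnI. The window at positions 102701 to 102800 (mirror 135849 to 135948, 1690 to 1789 bp from the start of rrn16S) ends at the annotated start of trnI. Its signal was 49.1, 81.1 and 114 in the lowest, median and highest nucleoid library, against 100.5, 147 and 215 in naked libraries. Of 11 naked libraries 9 lay above every nucleoid library. The means were 79.4 ± 20.9 in nucleoids (SD, n = 10) and 154 ± 38.4 in naked DNA (SD, n = 11), with -0.95 as the log2 fold change (SE 0.16, limma adjusted p = 0.00197). The mean was below the genome mean in nucleoids, and all 11 naked libraries were above it.

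With log2 depth in the model the log2 fold change of this window was -0.87 (limma adjusted p = 0.0117). It was -0.79 without naked replicates 9, 10 and 11 (limma adjusted p = 0.01), and from -1.01 to -0.88 when any 1 library was left out, with a call each time. Among deep libraries the means were 82.3 ± 20.3 in nucleoids (SD, n = 8) and 122 ± 17.4 in naked DNA (SD, n = 5), a log2 fold change of -0.59 (limma adjusted p = 0.077).

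Other windows with large differences lay within the genes. The window at positions 101301 to 101400, 290 to 389 bp into rrn16S, averaged 127 ± 29.4 in nucleoids and 227 ± 76.0 in naked DNA (log2 fold change -0.80, SE 0.17, limma adjusted p = 0.00847). The window at positions 107001 to 107100, in the 3′ part of rrn23S, averaged 139.6 ± 33.4 in nucleoids and 247 ± 80.2 in naked DNA (-0.78, SE 0.17, limma adjusted p = 0.00924). In deep libraries these windows had -0.40 (limma adjusted p = 0.114) and -0.39 (0.117), and with depth in the model -0.60 (0.0378) and -0.56 (0.041).

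The windows that differed least were outside or at the edges of the rRNA genes. They were positions 107701 to 107800, mostly between rrn4.5S and rrn5S (-0.05, limma adjusted p = 0.684), 103101 to 103200 within trnI (-0.12, 0.556) and 104601 to 104700, mostly in the spacer before rrn23S (-0.12, 0.306). Their signals were 139 ± 20.4 in nucleoids and 144 ± 22.9 in naked DNA for the window after rrn4.5S, 150.3 ± 29.6 in nucleoids and 169 ± 57.9 in naked DNA for the window in trnI, and 129.6 ± 13.5 in nucleoids and 142 ± 26.2 in naked DNA for the window before rrn23S. All 3 had a higher mean in nucleoids among deep libraries, by 0.04, 0.18 and 0.07 on the log2 scale, without passing the test.

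The shape of the operon was compared by scaling each library to its own operon mean, an alternative chosen after seeing the data. Of the 69 windows, 10 were then called lower in nucleoids and 8 higher. All windows of the genome give 1.01% lower and 72.9% higher on that scale. These shares are no background for the operon, whose own mean is the scale. By that choice the operon windows centre near 0 (median -0.0021), with some above and some below. The adjustment ran over all 1282 windows, of which 947 were called, so the adjusted p-values of operon windows are less strict here. By where most of each window lies, the lower ones were 2 in rrn16S, 6 in rrn23S and 2 in spacers, one before trnI and one before rrn4.5S. The higher ones were 5 in trnI, 1 in trnA and 2 in spacers, one before rrn23S and one after rrn4.5S. The window before trnI was at -0.50 (limma adjusted p = 0.0103) in this scaling, and 0 of 69 windows passed among the deep libraries, where it was at -0.44 (limma adjusted p = 0.149).

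Windows of 50 bp, of which 9.34% were called lower over the whole genome, gave the largest fold changes at a finer scale. The 50 bp window just before trnI, at positions 102751 to 102800, averaged 65.4 ± 24.5 in nucleoids and 160.1 ± 41.1 in naked DNA (log2 fold change -1.33, SE 0.20, limma adjusted p = 0.000537). Its highest nucleoid library had 107 and its lowest naked library 102, and 10 of 11 naked libraries lay above every nucleoid library. Among deep libraries it averaged 71.0 ± 23.9 in nucleoids and 122.6 ± 14.1 in naked DNA, a log2 difference of -0.85, not tested. A window inside rrn23S, at positions 105901 to 105950, averaged 115 ± 29.1 in nucleoids and 252 ± 81.7 in naked DNA (-1.09, SE 0.18, limma adjusted p = 0.0012). There too 10 of 11 naked libraries lay above the highest nucleoid library, which had 157. Its deep libraries averaged 113.5 ± 28.8 in nucleoids and 177.3 ± 20.1 in naked DNA, a log2 difference of -0.68, not tested. The window just before rrn23S, at positions 104601 to 104650, had the opposite sign, with 117 ± 18.9 in nucleoids and 97.3 ± 16.2 in naked DNA (0.27, limma adjusted p = 0.057), and 114 ± 19.7 in nucleoids and 87.3 ± 4.37 in naked DNA among deep libraries.

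In 10 bp bins of the deep libraries, described without a test, low nucleoid signal before trnI lay on both sides of bins in which the fractions were alike. From 1662 to 1711 bp from the start of rrn16S all 5 bins had the lower mean in nucleoids. The bin from 1672 bp averaged 88.0 ± 30.2 in nucleoids and 156 ± 18.3 in naked DNA, that from 1682 bp 212 ± 46.3 in nucleoids and 312 ± 37.8 in naked DNA, and that from 1702 bp 45.0 ± 21.4 in nucleoids and 98.8 ± 14.9 in naked DNA. At 1712 to 1751 bp the means lay within 1 SD of each other, for instance 144 ± 12.5 in nucleoids and 135 ± 34.9 in naked DNA in the bin from 1722 bp. At 1752 to 1781 bp the bins averaged 93.4 ± 32.5, 57.7 ± 26.2 and 84.3 ± 34.7 in nucleoids, against 149 ± 13.9, 130.3 ± 16.2 and 182 ± 24.6 in naked DNA. Between 1502 and 1661 bp, nearer rrn16S, the direction was mixed, with 245 ± 38.5 in nucleoids and 201 ± 17.7 in naked DNA in the bin from 1652 bp. The bins were chosen after their values were seen.

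**Figure D5:**
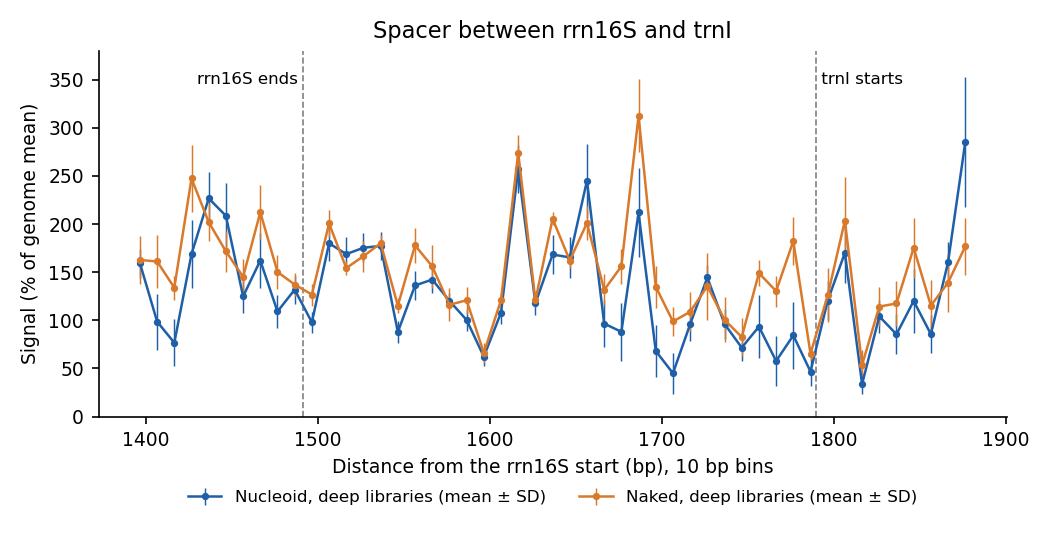
Signal in 10 bp bins as a percent of the genome mean (vertical axis) against distance from the start of rrn16S in bp (horizontal axis) across the spacer between rrn16S and trnI, mean with SD for 8 deep nucleoid and 5 deep naked libraries. The nucleoid line lies below the naked line at 1662 to 1711 bp and at 1752 to 1781 bp, and the lines run close together at 1712 to 1751 bp.

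Spacers taken whole are described without a test. The spacer of 98 bp between rrn23S and rrn4.5S averaged 141 ± 22.97 in nucleoids and 228 ± 61.2 in naked DNA, a log2 difference of -0.66. In deep libraries it averaged 137 ± 18.2 in nucleoids and 177 ± 17.5 in naked DNA (-0.38). The spacer of 298 bp between rrn16S and trnI averaged 125 ± 14.2 in nucleoids and 176 ± 33.7 in naked DNA (-0.47, and -0.27 in deep libraries). The other spacers differed less, with -0.32 for the 232 bp after rrn5S, -0.30 for the 247 bp between rrn4.5S and rrn5S, -0.26 for the 63 bp between trnI and trnA, and -0.18 for the 152 bp before rrn23S. In deep libraries these were -0.09, -0.15, -0.06 and 0.02 in the same order. The 231 bp upstream of rrn16S and after trnV, where promoters of the operon lie, averaged 131 ± 16.99 in nucleoids and 163 ± 31.3 in naked DNA (-0.30, and -0.13 in deep libraries). The difference was uneven along it. The 100 bp window centred at -160.5 bp had -0.53 (limma adjusted p = 0.00617), with deep means of 122 in nucleoids and 155 in naked DNA. The window centred at -60.5 bp had -0.17 (limma adjusted p = 0.199), with deep means of 129 and 130. Both windows were named after their values were seen.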

How the data were processed

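ptATAC-seq libraries of nucleoid and naked plastid DNA were compared. The authors deposited a table with 1 whole-number count per TAIR10 plastid position and library, without scaling between libraries. The submitters' processing notes name Trim Galore 0.4.1, Bowtie2 2.2.8.9 and bedtools 2.25.0; the Tn5 shift, duplicate removal and treatment of reads matching both repeats are not given in the sources used here. The copies of the repeat each held 49.9% to 50.1% of repeat counts, so a difference between copies cannot be measured. The columns' header could not be read by the check of units, so the deposited values were treated as another kind of value than counts, and limma, planned for that case, replaced the count models. Kept PCR duplicates would leave the counts with more error than counting alone gives.

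Gene limits came from a RefSeq table of TAIR10.1, another assembly name than that of the counts. Positions were folded on the mirror sum 238649 and copies summed. Signal was tested as log2(signal + 1) with limma 3.58.1 in R 4.3.3 (two-sided, Benjamini-Hochberg) over 112 genes and 1282 windows of 100 bp with a mean scaled count of at least 10; the limma-voom alternative used the summed gene values. Python 3.11.15 and scipy 1.17.1 ran the permutation tests. The limma fit was tested on simulated window counts. They were drawn independently around the mean profile, without shifts shared by the windows of a library. That test therefore does not cover libraries whose windows move together. Named were the 4 rRNA genes, the neighbouring transfer RNA genes, the 2 highest and 2 lowest ribosomal protein genes by fold change, the 5 genes outside the operon most like rrn16S, and the 3 most and 3 least lowered operon windows; other repeat genes, 50 bp windows and 10 bp bins were named after their values were seen. The genes, lists and the depth limit of 600000 counts were chosen with earlier results of these data known. Deviations from the fraction means of same-numbered libraries correlated at 0.11 to 0.75 in all 10 pairs, so the number was taken as a pairing. The library of its own number was the best match in 1 of the 10 pairs, and the labels do not say what the number marks. Fits with the replicate block therefore rest on a pairing that is not established. Naked replicate 10 has no partner and adds nothing to the difference in those fits.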

Additional observations from a re-analysis of the deposited data

Results flagged for a closer look

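Nucleoid replicate 11, the shallowest nucleoid library with 202725 counts, lay far above the other 9 nucleoid libraries in 5 of 11 values examined for such a library, where chance gives about 0.55. Its signal was 233 at rrn16S, against 170 in the next library, 210.3 at rrn23S (next 164), 281 at rrn4.5S (next 203) and 196 at rrn5S (next 149.8). Its operon share was 19.1% of counts, against 14.6% in the next library. These 5 values share counts and are not independent. The part of depth in them was not tested.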

How the results depend on the processing

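rrn16S, rrn23S, rrn4.5S and rrn5S were lower in nucleoids under every alternative run. Leaving out 1 library at a time gave -0.57 to -0.42 for rrn16S, -0.57 to -0.43 for rrn23S, -0.40 to -0.26 for rrn4.5S and -0.56 to -0.45 for rrn5S. Calls were lost for rrn16S and rrn23S with depth in the model (-0.27 and -0.30), in deep libraries (-0.16 and -0.17) and without naked replicates 9, 10 and 11 (-0.29 and -0.31). rrn4.5S gained one with scaling to the inverted repeat outside the operon (-0.40) and with the replicate block (-0.28). The ratios of rrn4.5S to rrn23S and of rRNA genes to spacers lost their calls with the replicate block (0.19 and -0.13) and in deep libraries (0.064 and -0.049). The block changed no other call among the rRNA genes and ratios.

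Genes called numbered 38, against 20 with depth in the model, 17 in deep libraries and 30 to 43 with 1 library left out. Operon windows called numbered 44, against 11 with depth in the model, 0 in deep libraries and 15 without naked replicates 9, 10 and 11. They numbered 19 to 60 with 1 library left out, 75 at 50 bp and 20 at 200 bp. Scaled to the operon mean they numbered 18, and 0 with that scaling in deep libraries. Calls over all windows of the genome numbered 287, against 60 with depth, 3 in deep libraries and 98 without naked replicates 9, 10 and 11. They numbered 82 to 498 with 1 library left out. At 50 bp 680 of 2558 windows were called and at 200 bp 109 of 641, beside 287 of 1282 at 100 bp. Scaled to the operon mean, calls over all windows numbered 947, and 0 with that scaling in deep libraries.

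The rrn23S to rrn16S difference was -0.020 to 0.0071 with 1 library left out. The rrn5S to rrn23S difference was -0.012 with depth, -0.081 in deep libraries, -0.031 without naked replicates 9, 10 and 11, -0.013 from the first copy and -0.021 to 0.018 with 1 library left out. The 5′ to 3′ difference became -0.066 for rrn16S with depth and passed; for rrn23S it was -0.011 with depth and -0.00075 in deep libraries. The least changed windows (107701, 103101 and 104601) turned positive, to 0.056, 0.11 and 0.0061 with depth, 0.037, 0.18 and 0.071 in deep libraries, 0.067, 0.083 and 0.0067 without naked replicates 9, 10 and 11, 0.40, 0.34 and 0.33 scaled to the operon mean, and 0.19, 0.33 and 0.22 with that scaling in deep libraries. Scaled to the operon mean, the least lowered windows lie above 0 by the choice of scale. For the other settings the cause was not tested. The edgeR and DESeq2 alternatives were not run, since the values were not accepted as counts. Among the rRNA genes depth limits rrn4.5S most, with 256 counts in its lowest library.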
